A study of Mus musculus and Homo sapiens with 14 samples.

Results

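The genes described here are chaperones and their cochaperones, mainly cytosolic and mitochondrial, followed through a study of salt-inducible kinases and MEF2C in acute myeloid leukemia cells. They were chosen by symbol, as every gene of the deposited tables whose symbol begins, in either case, with Hspa, Hspb, Hspd, Hspe, Hsph, Hsp90, Dnaja, Dnajb, Dnajc or Cct2 to Cct8. The choice was made with earlier results of these data known. The rule left out 7 named chaperones of the endoplasmic reticulum, among them Hspa5 (BiP) and Hsp90b1 (Grp94), and numbered pseudogenes. J-proteins of the endoplasmic reticulum that it does not name remain among the members. The rule gave 80 symbols of 24143 over all tables, 76 in the human table and 76 in each mouse table. HSPA1A, HSPA1B and HSPA1L were not analysed in the human cells.

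Chaperones bind unfolded proteins and keep them from aggregating. HSP70 binds short hydrophobic stretches in cycles of ATP hydrolysis that J-proteins (the DNAJ genes) start and exchange factors such as HSP110 end, and HSP90 acts later, on nearly folded clients that include many kinases. The ring chaperonin TRiC folds actin and tubulin in the cytosol, while HSP60 (Hspd1) with its lid HSP10 (Hspe1) and the mitochondrial HSP70 (Hspa9) fold proteins imported into mitochondria. Heat shock factor HSF1 drives many of these genes through repeated GAA units in their promoters, and leukemia cells are known for high chaperone expression.

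Polyadenylated RNA was sequenced in 14 libraries in 7 groups of 2. MOLM-13, a human leukemia line with an MLL-AF9 fusion that here carried an empty vector, received 0.1% DMSO or 250 nM YKL-05-099, a small-molecule inhibitor of the salt-inducible kinases, for 2 hours. RN2, a mouse leukemia line driven by MLL-AF9 and mutant Nras, whose libraries are also titled "empty", received 0.1% DMSO or 350 nM YKL-05-099 for 2 hours. RN2c, the RN2 line with Cas9, was harvested on day 2 after infection with a guide RNA. The guide was against Rosa26 as control (sgRosa26), against Sik3 (guides e1 and e3) or against Mef2c. The sgSik3 libraries thus also differ in guide. The titles number the sgMef2c libraries 1 and 2, as they number those of sgRosa26, and do not say whether these are different guides. They are called guide 1 and guide 2 below as names of libraries only, and both may hold the same guide. Each group thus stands for a single cell line in culture, and no label ties the 2 libraries of any group to different cultures. The p-values therefore measure only how far libraries spread, which may be technical.

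Values are DESeq2-normalized reads, and the reads recovered from them came to between 13961461 and 24275290 per library. The targeted messages were read first. Sik3 stood at 1939 and 1878 in the sgRosa26 libraries (labelled sgrosa26) and at 1219 and 1169 in the sgSik3 libraries, and Mef2c at 8395 and 8369 against 3892 and 4021 in the sgMef2c libraries. Both knockouts were compared with the same sgRosa26 libraries, so their results share any deviation of those controls. In both knockouts, neutrophil markers were higher. Their summed value over 8 genes went from 45902 and 50469 to 144419 and 133980 with sgSik3, and from 48250 and 52913 to 139302 and 226238 with sgMef2c; all 8 rose in the former and 7 of 8 in the latter, and 6 and 5 of 7 tested markers of myeloid leukemia cells rose (1 fell with sgMef2c). In the mouse libraries the T cell list summed to at most 2 and the B cell list to at most 10.5, with Cd3e and Ms4a1 at 0. The erythroid list summed to at most 18.3, with Hbb-bs, Hbb-bt and Hba-a1 at 0. The fibroblast and endothelium list was not low, at 3852 to 7333. Only 1 of its 4 genes was tested, and it fell with sgMef2c (log2 difference -0.22, limma adjusted p = 0.0048). In MOLM-13 the T cell list summed to between 2866 and 3219, with CD3E at 0 and only 2 of its 4 genes tested. The part of the shift in neutrophil and myeloid markers in the results below was not tested, and in bulk RNA fewer cells of a type cannot be told apart from less RNA per cell.

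HSP90, HSP70, TRiC and HSP60 made up most of the chaperone message. Per kilobase of exon, Hsp90ab1, the constitutive cytosolic HSP90, had the highest level of all members in RN2 cells with DMSO, at 17135 and 17176 normalized reads per kb, rank 9 of 19957 genes. The next level per kb, that of the TRiC subunit Cct2, was 3742 and 3812, followed by Hspd1 at 3799 and 3457 and Hspa8, the constitutive HSP70, at 3676 and 3005. Hspd1 overlapped both Cct2 and Hspa8, Cct2 lay above Hspa8 in both libraries, and Hsp90ab1 stood clear of all 3. In sgRosa26 RN2c cells the order per kb was Hsp90ab1 (21193 and 20609), Hspa8 (7977 and 7265), Cct2 (4778 and 4827) and Hspd1 (4763 and 4680), and Cct2 was above Hspd1 in both libraries by little.

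All members together took between 1.34% and 1.40% of the reads in the 4 RN2 libraries and 1.35% and 1.32% in the sgRosa26 libraries. With sgSik3 the share was 1.04% in each library, and with sgMef2c it was 1.17% and 1.11%. Neither knockout overlapped the controls in this share, nor did the knockouts overlap each other. In the human table, which has other members, it lay between 1.72% and 1.76%, with the inhibitor libraries (1.75% and 1.76%) inside the range of the DMSO libraries (1.72% and 1.76%). With groups of 2, no permutation test of such a share can reach 0.05, and none was made.

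**Figure D1:**
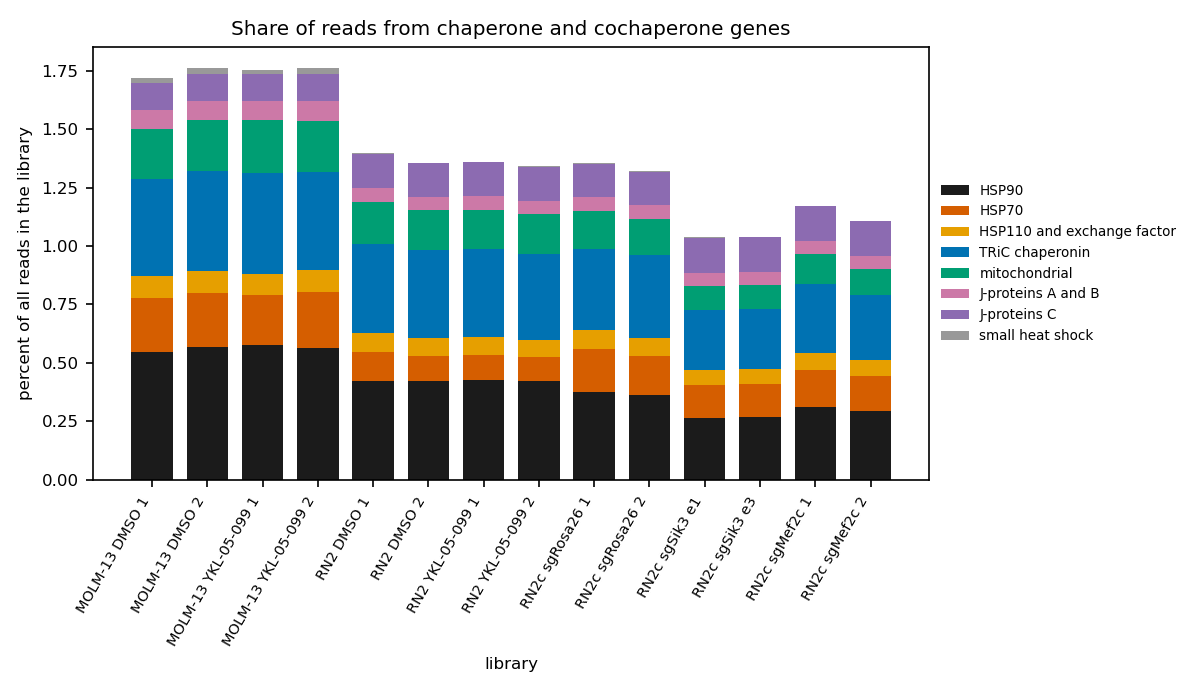
Share of all reads in each of the 14 libraries (percent, vertical axis) that fell on chaperone and cochaperone genes, stacked by role. The sgSik3 libraries, at 1.04% each, are the lowest, and the 4 MOLM-13 libraries the highest.

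The heat-inducible HSP70 genes Hspa1a and Hspa1b and several small heat shock genes were near the floor in the mouse cells. Hspa1a, the heat-inducible HSP70, had 6.3 and 3 normalized reads in RN2 with DMSO and 9.72 and 7.82 with the inhibitor, and Hspa1b, its near-identical neighbour, 13.6 and 15 against 23.3 and 13.7. The groups overlapped or lay a few reads apart, and reads of these 2 genes cannot be assigned with certainty. Hspb1 (HSP27), a small heat shock protein that forms large oligomers, was listed at 0 in 3 of the 4 RN2 libraries and at 0.972 in the other, while human HSPB1 in MOLM-13 stood at 3237 and 4423 with DMSO. In all, 17 of 76 members in the RN2 table and 16 in each RN2c table had a mean under 10 and were not tested, among them Hspb1, Hspb2, Hspb3, Hspb7, Hspb8, Hspb11 and Hspa1a. In MOLM-13, 18 of 76 were below this level, including HSPA2, HSPB6, HSPB8 and DNAJC12.

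The inhibitor comparison asked what 2 hours of YKL-05-099 did to these genes. No member passed the test in either line. In MOLM-13, 0 of 58 tested members passed limma with Benjamini-Hochberg adjustment at 0.05 and 0 had an unadjusted p under 0.05, against a background of 0% called among all genes, where 144 of 11361 had an unadjusted p under 0.05. edgeR and DESeq2 also called 0 members there. The median log2 difference was 0.01 over the members and -0.00 over all genes.

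The abundant members in MOLM-13 differed less between treatment means than between the 2 libraries of 1 or both treatments. HSP90AB1 was at 65473 and 69378 with DMSO and 68146 and 67447 with YKL-05-099. HSPA8 was at 42604 and 42834 against 39276 and 44445, and HSPD1 at 19138 and 19069 against 20564 and 19212. In each of HSP90AB1 and HSPA8 the inhibitor libraries fell on both sides of or within the DMSO range, and the HSPD1 inhibitor libraries lay just above it, with a log2 difference of 0.06 (limma adjusted p = 1). HSPB1 split by replicate number and not by treatment, with 3237 and 2858 in the first libraries and 4423 and 4124 in the second. The other core members, DNAJA1, DNAJA3, DNAJB1, DNAJB6, DNAJC2, HSPA4, HSPA9, HSPE1, HSPH1 and the TRiC subunits CCT2 to CCT8 without the low CCT6B, had log2 differences between -0.05 and 0.06.

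HSPBP1 was at 2258 and 2459 against 1883 and 2299, a log2 difference of -0.18, and HSP90AA1 at 40120 and 40225 against 44219 and 40265. The HSPBP1 groups overlapped and those of HSP90AA1 lay just apart. Outside the core set, DNAJC27, a J-protein with a Rab-like domain, had 130 and 120 with DMSO and 151 and 142 with the inhibitor. DNAJC30, a mitochondrial J-protein, had 222 and 267 against 188 and 231. DNAJC27 did not overlap between groups and DNAJC30 did, and neither passed the test (limma adjusted p = 1 for each). DNAJC19 (0.18), HSPA4L (0.10), DNAJC11 (-0.10) and DNAJB5 (-0.16) did not pass either. Over all tested members the log2 differences ran from -0.55 (HSPA12B) to 0.49 (HSPA6), both genes of low level. Of the 58, 5 were higher and 2 lower without overlap, beside 10.7% and 10.5% of all tested genes.

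In RN2, 0 of 59 tested members passed limma at an adjusted p of 0.05, where 0.317% of all genes were called, 0.0373% higher and 0.28% lower. An unadjusted p under 0.05 was found for 0 members and for 786 of all 10732 tested genes. edgeR and DESeq2 called 0 members as well. The smallest adjusted p of a member was 0.69, for Hspa8, at 15812 and 12924 with DMSO and 13276 and 12243 with YKL-05-099, a log2 difference of -0.17 ± 0.08 (SE, limma). The inhibitor libraries were within or below the DMSO range, which they overlapped. Without the second DMSO library the Hspa8 difference was -0.31 and passed (limma adjusted p = 7.5e-07), and that of Hspd1 was -0.15 (limma adjusted p = 0.03).

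The mitochondrial and ring chaperonins of RN2 kept close to their DMSO values. Hspd1 stood at 10038 and 9133 with DMSO and 9256 and 8840 with the inhibitor, Hsp90ab1 at 51388 and 51510 against 51416 and 51082. The 7 tested TRiC subunits had log2 differences between -0.06 and -0.00, with 0 past the test. Hsph1 was at 2189 and 2117 against 2091 and 1908 (log2 difference -0.11, limma adjusted p = 0.74), and Dnaja3 at 1244 and 1045 against 1085 and 1016 (-0.12, limma adjusted p = 0.83). The Hsph1 libraries did not overlap and those of Dnaja3 did.

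The other core members, Hsp90aa1, Hspa4, Hspa9, Hspe1, Hspbp1, Dnaja1, Dnajb1, Dnajb6 and Dnajc2, had log2 differences between -0.09 and 0.01 in RN2. Outside the core set, Dnajb4, an HSP40 of the B class, gave 289 and 230 against 291 and 302, the largest positive difference among the J-proteins at 0.20 (limma adjusted p = 0.8). Hspa1l (0.32), Dnajc18 (0.13), Dnajc21 (-0.13), Dnajc25 (-0.13) and Dnajc11 (-0.09) did not pass. Of the 59 tested members 15 were lower in both inhibitor libraries than in both DMSO libraries and 5 higher, beside 18.7% and 18.1% of all tested genes.

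**Figure D2:**
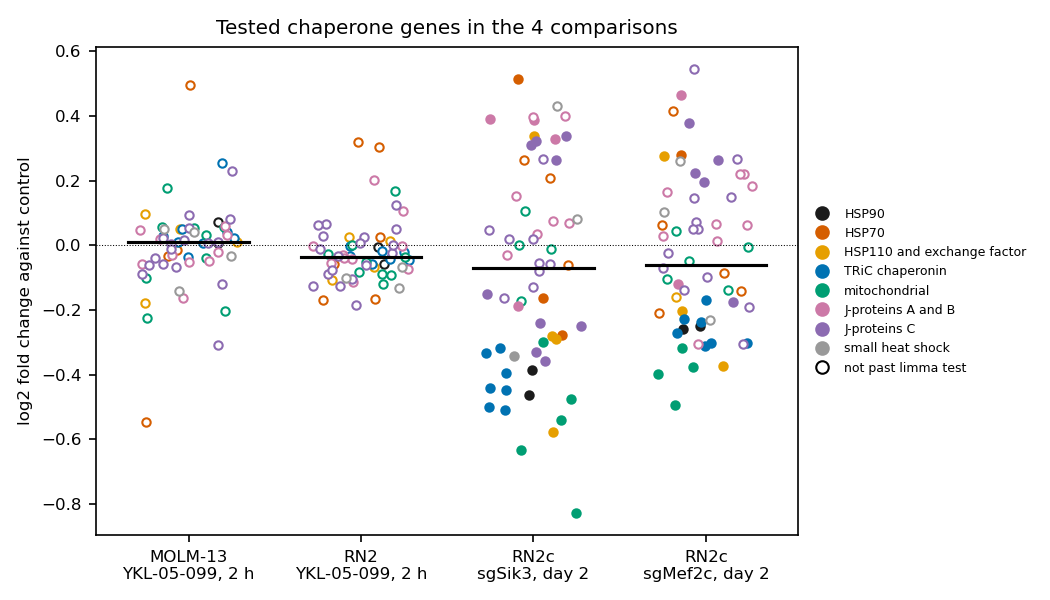
Log2 fold change against control (vertical axis) of every tested chaperone gene in the 4 comparisons, coloured by role; filled points passed limma and the black bars are medians. All points are open in MOLM-13 and RN2, and in RN2c the mitochondrial, TRiC and HSP90 genes lie mostly below 0.

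The sgSik3 comparison asked which of these genes change when Sik3 is disrupted. Here 26 of 60 tested members fell and 9 rose (limma, Benjamini-Hochberg adjusted p under 0.05), and 25 did not pass. Among all 10934 tested genes 47.8% were called, 23.9% lower and 23.9% higher, and of the tested members 43.3% fell and 15% rose. No test was made of these shares. Without overlap 31 members were lower and 17 higher, beside 37.8% and 37.4% of all tested genes. The median log2 difference was -0.07 over the members and -0.00 over all genes. The members that fell were both HSP90 genes, all 7 tested TRiC subunits, 5 of 9 mitochondrial members, 3 of 4 in the HSP110 and exchange-factor group, 2 of 6 HSP70 genes, 6 J-proteins outside mitochondria and 1 of 3 small heat shock symbols. The members that rose were 7 J-proteins, Hspa2 and Hspa4l.

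Hspd1 and Hspe1 changed most. Hspd1, the HSP60 chaperonin of the mitochondrial matrix (chr1:55077835-55088243, minus strand, GRCm38), went from 12584 and 12364 with sgRosa26 to 6892 with guide e1 and 7175 with guide e3. That is a fall of 0.83 ± 0.03 on the log2 scale (SE, limma adjusted p = 4.6e-07). Hspe1, its HSP10 lid, encoded head to head with it (chr1:55088132-55091307, plus strand), went from 2473 and 2326 to 1555 and 1540, a fall of 0.63 ± 0.04 (limma adjusted p = 6.9e-06). In both genes the knockout libraries lay close together and far below the controls. Both have processed pseudogenes, so some of their reads are uncertain.

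RefSeq gives Hspd1 more than 1 start site. The start 216 bases from that of Hspe1 leaves a heat shock element between the pair, while from the other start, 95 bases from that of Hspe1 and at the end of the Hspd1 coordinates above, the element lies inside the Hspd1 gene. This site for HSF1 is a run of inverted GAA units. A 2-unit element was searched as GAANNTTC or TTCNNGAA and a 3-unit element as the same letters extended by NNGAA or NNTTC, so that it contains the shorter one, on both strands, in windows of 300 bases around RefSeq starts (250 before, 50 after; GRCm38.p6), which 62 of the 76 mouse members have. These 62 members have 81 windows. The 3-unit form was in 6 of the 81, from 4 members, Hspd1, Hspe1, Hsph1 and Dnajb6, and in 0.603% of all 32851 windows. The 2-unit form was in 21 of the 81, from 19 members, and in 15.1% of all windows. The 3-unit stretches are shown because this rarer form was shared by 3 genes that fell and by Dnajb6, a J-protein that did not pass the test, and those of Cct6a and Hspa1a to show the common 2-unit form. They are 30 bases on the gene's strand with the element in capitals: Hspe1 at chr1:55088053-55088082 (4 units, 89 to 72 bases before the start, shared with Hspd1 on the other strand), Hsph1 at chr5:149636279-149636308 (minus strand, 16 to 28 bases after the start), Dnajb6 at chr5:29735844-29735873, Cct6a at chr5:129787369-129787398 and Hspa1a at chr17:34972242-34972271 (minus strand).
Hspe1: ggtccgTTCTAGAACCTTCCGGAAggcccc
Hsph1: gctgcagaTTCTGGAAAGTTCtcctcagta
Dnajb6: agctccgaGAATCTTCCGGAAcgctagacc
Cct6a: gcgtaagacttTTCGAGAAgaccccgcaga
Hspa1a: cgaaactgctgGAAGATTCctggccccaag

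Of the 48 tested members with a window 13 had a 2-unit element, and of these 7 fell and 1 rose with sgSik3. Of the 4 with a 3-unit element 3 fell, among them Hspd1 and Hspe1, which share an element. Of all 60 tested members, with or without a window, 43.3% were lower and 15% higher, and of all genes 23.9% in each direction. The E-box CACGTG, the core site of MYC and its partners, was in 6 members, Hspd1, Hsph1, Hspbap1, Dnajc1, Dnajc8 and Dnajc16, of which 4 fell. It was in 7 of the 81 member windows and in 7.15% of all windows. These counts are small, and no relation of either motif to the calls was tested. A match is a description of letters and not a bound site, and HSF1 or MYC binding was not measured. Hsf1 message fell with sgSik3 from 1098 and 1111 to 950 and 996 (log2 difference -0.18, limma adjusted p = 0.015), and Myc from 5075 and 5032 to 2976 and 3119 (-0.73, limma adjusted p = 1.4e-06).

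Other mitochondrial members followed the same direction. Hspa9 (mortalin), the matrix HSP70 that pulls in imported chains, went from 12027 and 11378 to 7907 and 8179, a fall of 0.54 (limma adjusted p = 6.6e-06). Dnajc11, a J-protein of the cristae-organizing complex, went from 2429 and 2484 to 1748 and 1784, a fall of 0.48 (limma adjusted p = 1.7e-05). Dnaja3 (Tid1), the matrix J-protein partner of Hspa9, went from 1645 and 1631 to 1316 and 1348, a fall of 0.30 (limma adjusted p = 0.00045). The groups were separate in all 3. Dnajc19, Dnajc30, Dnajc15 and Dnajc28 did not pass, and their log2 differences lay between -0.17 and 0.11.

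Both cytosolic HSP90 genes fell. Hsp90ab1 went from 63559 and 61806 to 44888 and 46026, a fall of 0.46 ± 0.04 (limma adjusted p = 1e-05). Hsp90aa1, the inducible isoform, went from 12855 and 12786 to 9987 and 9637, a fall of 0.39 ± 0.03 (limma adjusted p = 1.8e-05). In each the sgSik3 libraries lay below both controls by several times the gap between controls. The mean fell by 27.5% for Hsp90ab1 and by 23.5% for Hsp90aa1.

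Every tested subunit of TRiC under the rule fell, by 0.32 to 0.51 on the log2 scale with a median fall of 0.44. Cct6a went from 9897 and 9841 to 7035 and 6833 (log2 difference -0.51, limma adjusted p = 3.8e-06). Cct3 went from 8725 and 8932 to 6359 and 6137 (-0.50, limma adjusted p = 5.9e-06). Cct4, with the smallest change, went from 7247 and 7448 to 5894 and 5895 (-0.32, limma adjusted p = 5.6e-05). Cct8, Cct7, Cct5 and Cct2 lay between these, at -0.45, -0.44, -0.40 and -0.33, and in none of the 7 did the groups overlap. The first TRiC subunit is named Tcp1 and so falls outside the symbol rule; it went from 10826 and 10642 to 8423 and 8373 (-0.35, limma adjusted p = 2.3e-05). Cct6b, a testis form, had a mean under 10 and was not tested.

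Among the HSP70 genes and their exchange factors the members parted. Hsph1 (HSP105), an HSP110 exchange factor that also dissolves aggregates, went from 3959 and 3787 to 2584 and 2608, a fall of 0.58 (limma adjusted p = 4.7e-06). Its relative Hspa4 (Apg-2) went from 10738 and 10348 to 8571 and 8667, a fall of 0.29 (limma adjusted p = 0.00011). The third of this kind, Hspa4l (Apg-1), rose from 1053 and 1076 to 1378 and 1317 (0.34, limma adjusted p = 0.00044). So within the HSP110 family 2 genes were below and 1 was above controls, with no overlap in any. Hspbp1, an exchange factor of another fold, went from 991 and 922 to 818 and 757 (-0.28, limma adjusted p = 0.0055); without guide e3 it no longer passed (limma adjusted p = 0.062).

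Hspa8 went from 34308 and 31248 to 27166 and 26836, a fall of 0.28 ± 0.04 (limma adjusted p = 0.00087). Hspa14, a ribosome-bound HSP70, went from 2460 and 2236 to 2143 and 2046 (-0.16, limma adjusted p = 0.028). Hspa2, an HSP70 best known from spermatogenesis, rose from 438 and 483 to 663 and 653 (0.51 ± 0.07, limma adjusted p = 0.00037). Hspa2 was the largest rise of any tested member, 42.9% in the mean, from a level far below that of Hspa8 even per kilobase. Hspa1b (13.2 and 9.97 against 12.6 and 14.2) and Hspa1a (3.76 and 4.99 against 7.78 and 12) stayed near the floor, and Hspa1b did not pass the test (limma adjusted p = 0.66).

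J-proteins were called in both directions. Of 11 tested A and B members 3 rose, 1 fell and 7 did not pass, and of 18 tested C members outside mitochondria 4 rose, 5 fell and 9 did not pass. That is 27.3% higher and 9.09% lower for A and B and 22.2% and 27.8% for C, where all genes had 23.9% in each direction, so the C members were near the background. Dnajb1 (HSP40), the main heat-inducible J-protein, was at 1164 and 1171 against 1137 and 1151, and Dnaja1, a constitutive partner of Hspa8, at 2754 and 2864 against 2934 and 2986. The log2 differences were -0.03 and 0.08, and neither gene passed (limma adjusted p = 0.64 and 0.13). Dnajb6, at 1415 and 1378 against 1446 and 1417, was slightly higher in both sgSik3 libraries than in both controls and did not pass (0.04, limma adjusted p = 0.54). Dnaja2, the other major cytosolic A member, went from 4834 and 4810 to 4305 and 4170 (-0.19, limma adjusted p = 0.0018).

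Dnajc5 (cysteine string protein), a palmitoylated J-protein of vesicles, rose from 4625 and 4861 to 6045 and 5946 (0.34, limma adjusted p = 7.8e-05). Dnajc13 (RME-8), an endosomal J-protein, rose from 6198 and 6226 to 7557 and 7374 (0.27, limma adjusted p = 0.00015). Dnajc14 rose from 1521 and 1491 to 1844 and 1920 (0.32, limma adjusted p = 0.0003). All 3 sgSik3 pairs lay above both controls. The lower-level rises were Dnajb4 (0.39), Dnajb14 (0.39), Dnajb5 (0.33) and Dnajc4 (0.31). That of Dnajb14, from 244 and 237 to 346 and 287, did not pass with DESeq2 (adjusted p = 0.063). Nor did it pass without the mean-variance trend (limma adjusted p = 0.06). Without guide e1 the log2 difference of Dnajb14 was 0.25 and the call was lost.

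Dnajc2 (MPP11), the J-protein of the ribosome-associated complex together with Hspa14, went from 3004 and 3168 to 2512 and 2394 (-0.33, limma adjusted p = 0.00024). Dnajc7, a J-protein with TPR repeats that links HSP70 to HSP90, fell by 0.15, Dnajc18 by 0.36, Dnajc27 by 0.25 and Dnajc16 by 0.24. Of the 9 small heat shock symbols only 3 were tested, and Hspbap1, which binds HSPB1 and is not itself a chaperone, fell from 294 and 313 to 224 and 255 (-0.34, limma adjusted p = 0.02). Hspb6 and Hspb9 did not pass. Without guide e1 the calls of Dnajb5, Dnajc18, Dnajc16 and Hspbap1 were lost, and without e3 those of Dnajb5, Dnajc18, Dnajc16 and Dnajc27. Dnajc27 also did not pass without the mean-variance trend (limma adjusted p = 0.065). DESeq2 called none of these 5. Their highest adjusted p over the alternatives was 0.22 for Dnajb5, 0.11 for Dnajc18 and for Dnajc16, 0.16 for Hspbap1 and 0.19 for Dnajc27.

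**Figure D3:**
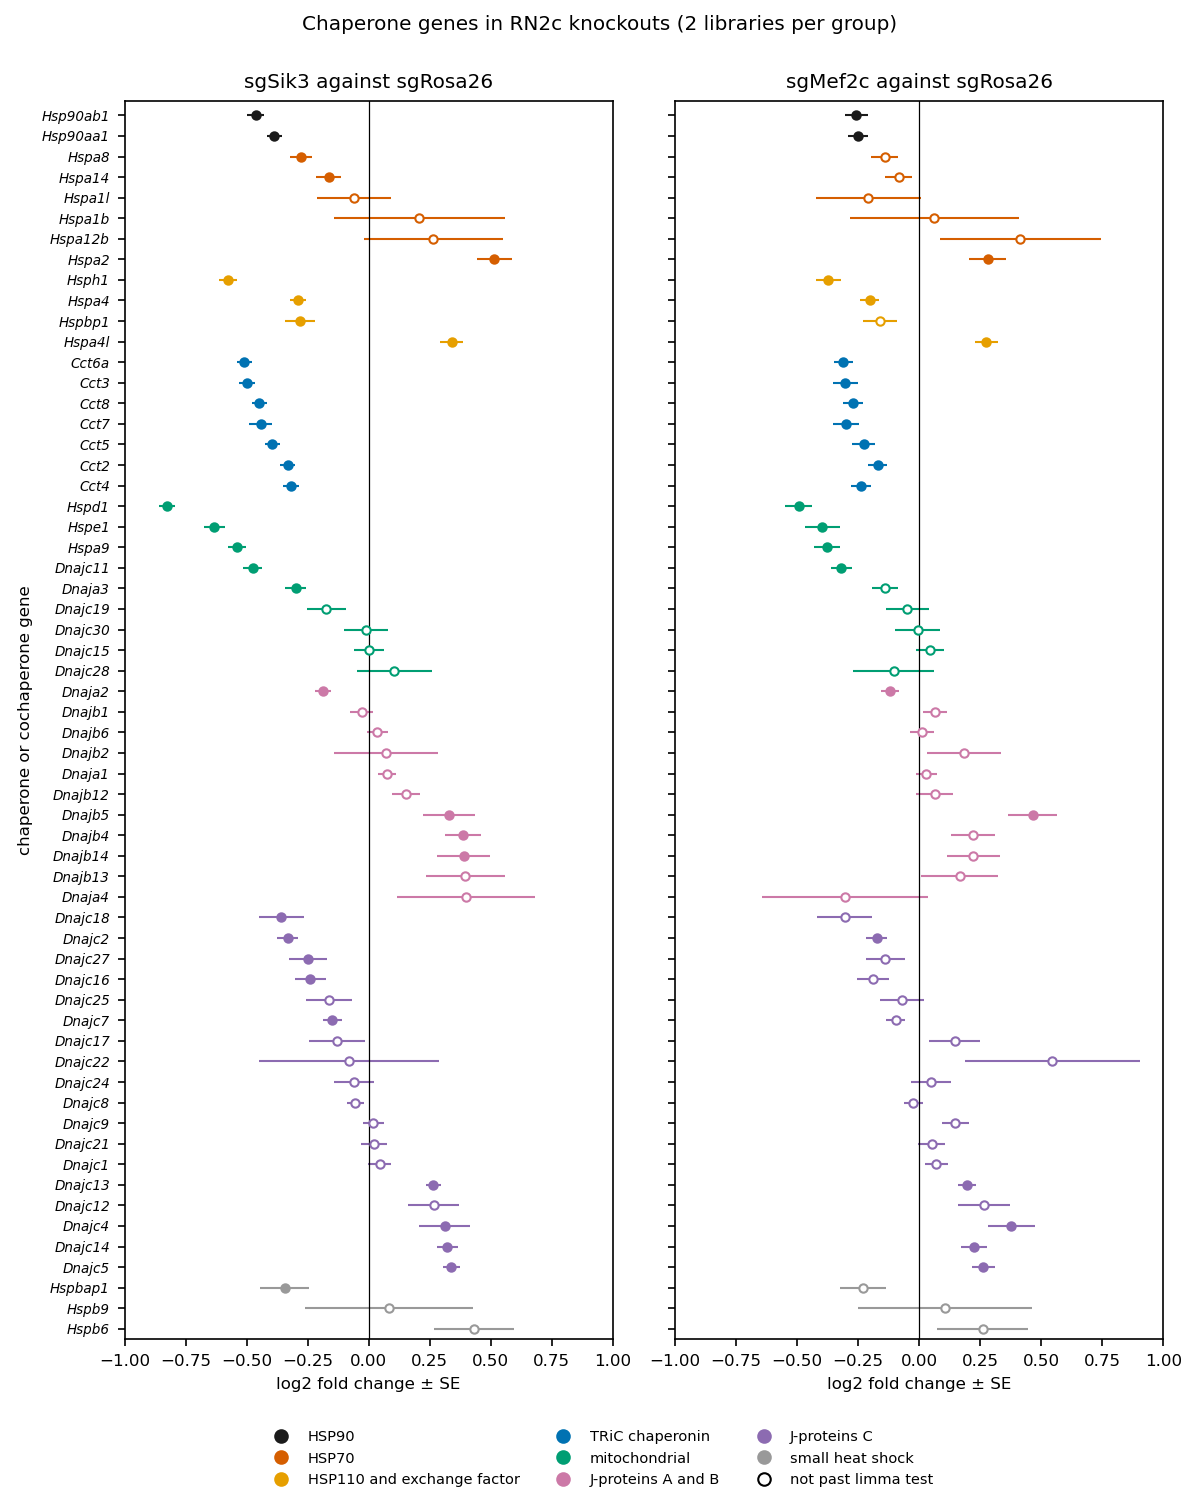
Log2 fold change ± SE (horizontal axis) of each member tested in both knockouts, grouped by role, for sgSik3 (left) and sgMef2c (right) against the same 2 sgRosa26 libraries; open circles did not pass limma. The HSP90, TRiC and leading mitochondrial genes sit left of 0 in both panels, from -0.83 for Hspd1 with sgSik3.

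Members were also set out by their level, which the rule did not use. With members ranked per kilobase by their level in RN2 with DMSO, libraries that no knockout test uses, 17 of the highest 20 fell with sgSik3 and 1 rose. Among all 1740 tested genes in the same level range 40.6% fell and 23.3% rose. In the middle 20 members 6 fell and 4 rose, beside 25.6% and 25.7% of all genes in that range. In the lowest 20 members 3 fell and 4 rose, beside 14.4% and 21.7%, so the counts of these lower bands were near those of all genes. The median log2 differences of the 3 bands were -0.36, -0.02 and 0.16, beside -0.05, -0.00 and 0.04 for all genes in those ranges.

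With sgMef2c, 17 of 60 tested members fell, 7 rose and 36 did not pass (limma, Benjamini-Hochberg adjusted p under 0.05). Of all 10956 tested genes 31.4% were called, 15.1% lower and 16.3% higher, beside 28.3% and 11.7% of the tested members. By role, both HSP90 genes, all 7 tested TRiC subunits, 4 of 9 mitochondrial members and 2 of 4 of the HSP110 group fell, and 0 of 6 HSP70 genes. Without overlap 27 members were lower and 17 higher, beside 35% and 35.5% of all tested genes. Limma without a mean-variance trend left 6 lower and 3 higher, and leaving out a library gave between 12 and 17 lower and between 3 and 7 higher (3 without guide 2, 4 without either sgRosa26 library).

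Hspd1 went from 13228 and 12963 with sgRosa26, in the normalization of this table, to 9827 with guide 1 and 8795 with guide 2, a fall of 0.49 ± 0.06 (limma adjusted p = 0.0012). Hspe1 went from 2600 and 2438 to 2051 and 1782, a fall of 0.40 (limma adjusted p = 0.0069, but 0.065 without the mean-variance trend). Hspa9 went from 12643 and 11929 to 9890 and 9045, a fall of 0.38 (limma adjusted p = 0.0029). In these 3 genes of the mitochondrial matrix the guide 2 library was the lower one and both lay below the controls. Dnajc11 fell by 0.32 (limma adjusted p = 0.0022), while Dnaja3, at 1729 and 1711 against 1621 and 1505, did not pass (limma adjusted p = 0.083).

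Hsp90ab1 went from 66811 and 64800 to 56328 and 53817, a fall of 0.26 ± 0.05 (limma adjusted p = 0.008). Hsp90aa1 went from 13513 and 13405 to 11620 and 11036, a fall of 0.25 ± 0.04 (limma adjusted p = 0.0049). The groups were separate in both. Without the mean-variance trend neither passed (limma adjusted p = 0.052 for Hsp90ab1 and 0.054 for Hsp90aa1). Hsp90ab1 also did not pass after quantile normalization (limma adjusted p = 0.23) or without the first sgRosa26 library, where its log2 difference was -0.24. Hsph1 went from 4162 and 3970 to 3266 and 3020 (-0.37, limma adjusted p = 0.0024). Hspa4 went from 11287 and 10850 to 9669 and 9567 (-0.20, limma adjusted p = 0.0088). Hspa4 did not pass without the mean-variance trend (limma adjusted p = 0.066) or without the first sgRosa26 library, where its difference was -0.17.

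The 7 TRiC subunits ranged from -0.31 to -0.17 on the log2 scale, with a median of -0.27. Cct6a went from 10403 and 10318 to 8559 and 8154 (limma adjusted p = 0.002). Cct2, the smallest change, went from 12844 and 12940 to 11677 and 11253 (limma adjusted p = 0.016). No subunit overlapped its controls. Cct2 and Cct5 lost the call without the first or without the second sgRosa26 library. The log2 difference was then -0.17 and -0.16 for Cct2, and -0.23 in each case for Cct5. Cct2 also lost the call without guide 2 (-0.14). Without the mean-variance trend Cct2, Cct3, Cct4, Cct5 and Cct7 did not pass (limma adjusted p from 0.056 to 0.086). Hspa8 was at 36063 and 32761 against 31383 and 30929 and did not pass (-0.14, limma adjusted p = 0.089), although its groups were separate; after quantile normalization it passed (limma adjusted p = 0.013).

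The rises were in Dnajb5 (168 and 166 to 228 and 234, log2 difference 0.46, limma adjusted p = 0.014), Dnajc4 (0.38), Hspa2 (0.28), Hspa4l (0.27), Dnajc5 (0.26), Dnajc14 (0.22) and Dnajc13 (0.19). Hspa4l went from 1106 and 1128 to 1356 and 1348 (limma adjusted p = 0.0061). Dnajc5 went from 4862 and 5096 to 5774 and 6182 (limma adjusted p = 0.007, but 0.065 without the mean-variance trend). Both were above the controls in each sgMef2c library. Without guide 2 Dnajb5, Dnajc4, Hspa2 and Dnajc14 lost the call, without guide 1 Dnajc4 and Hspa2, without the first sgRosa26 library Dnajc4, Hspa2 and Dnajc14, and without the second Dnajb5, Dnajc4 and Dnajc14. Their highest adjusted p over the alternatives was 0.10 for Dnajb5, 0.19 for Dnajc4, 0.14 for Hspa2 and 0.089 for Dnajc14.

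Dnaja2 fell by 0.12 and lost the call without any 1 of the 4 libraries (log2 differences from -0.13 to -0.11). It also lost the call with DESeq2 (adjusted p = 0.18), with no filter (limma adjusted p = 0.056) and without the mean-variance trend (limma adjusted p = 0.13). Dnajc2 fell by 0.17 and lost the call without either guide or the second sgRosa26 library (from -0.18 to -0.14). With DESeq2 (adjusted p = 0.066) and without the trend (limma adjusted p = 0.092) Dnajc2 did not pass either. Dnajb1 was at 1223 and 1227 against 1262 and 1303, Dnaja1 at 2895 and 3003 against 2988 and 3033, and Dnajb6 at 1487 and 1445 against 1450 and 1508. None of these J-proteins passed (limma adjusted p = 0.34, 0.62 and 0.87). Hspbp1 (-0.16) and Dnajc16 (-0.19) did not pass, and Hspa1a, Hspa1b and Hspb1 stayed at or near the floor, with at most 13.8 reads.

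The sgMef2c library called guide 2 gave the larger change in 20 of the 24 members called with sgMef2c. The median size was 0.24 in the guide 1 library and 0.30 in the guide 2 library on the log2 scale. Their titles do not say whether they differ in guide or only as libraries. The guide 2 library also had the higher neutrophil marker sum (226238 against 139302), whose part in the result was not tested. With sgSik3, 18 of 35 called members moved more with e3. By level in RN2, 15 of the highest 20 members fell with sgMef2c and 1 rose, beside 23.8% and 17.4% of all genes in that range. Of the middle 20 members 2 fell and 4 rose, beside 15.8% and 17.5%, and of the lowest 20 members 0 fell and 2 rose, beside 10.7% and 14.4%.

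**Figure D4:**
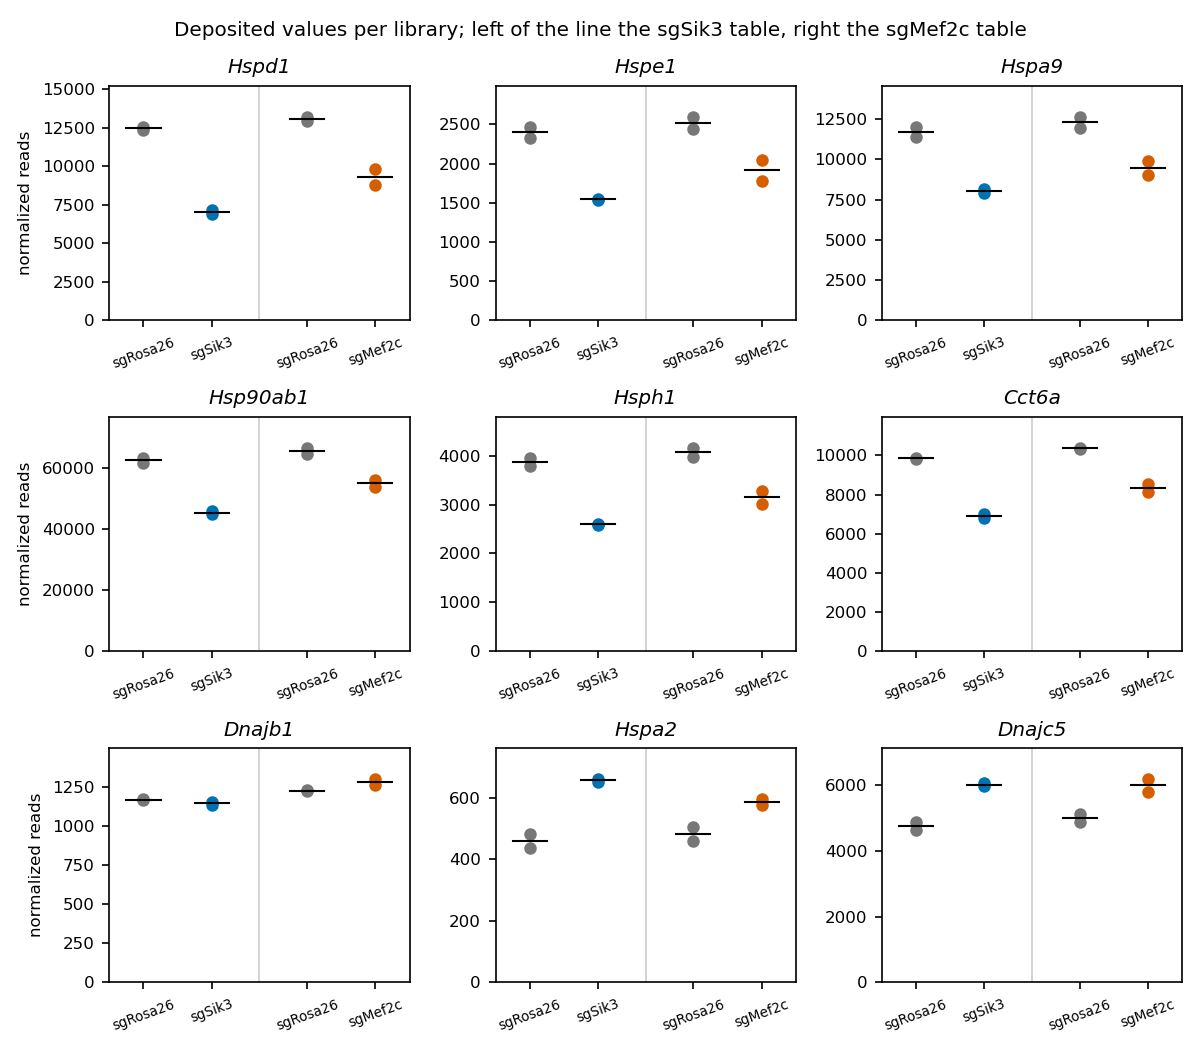
Normalized reads of 9 members in each library (vertical axis from 0; points are libraries, bars means), with the sgSik3 table left and the sgMef2c table right of the line; the same sgRosa26 libraries appear in both normalizations. Hspd1 stands at 6892 and 7175 with sgSik3 and at 9827 and 8795 with sgMef2c, Dnajb1 hardly moves, and Hspa2 and Dnajc5 are above their controls.

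The knockouts were then compared with each other, which does not rest on the shared controls for its difference, by edgeR's quasi-likelihood test on reads recovered from both tables. Of 60 tested members 7 were higher with sgMef2c than with sgSik3 and 0 lower (Benjamini-Hochberg adjusted p under 0.05). Among all 10954 tested genes 9.44% were called, 3.7% higher and 5.74% lower. An unadjusted p under 0.05 was found for 20 members and for 2837 of all tested genes. DESeq2 called 8 members higher and 0 lower, beside 213 higher and 393 lower of all genes. Hspd1 differed most, by 0.33 ± 0.05 (SE) on the log2 scale (edgeR adjusted p = 0.0072). The other 6 were Hsp90ab1 and Hsph1 (0.20 each), Cct6a and Cct3 (0.19 each), Cct8 (0.17) and Cct2 (0.15). For each of these 7 the fall from control was thus smaller with sgMef2c. Hspe1 differed by 0.23 and did not pass (edgeR adjusted p = 0.059), Hspa2 by -0.24 (edgeR adjusted p = 0.053). With either sgSik3 library left out 0 members were called, without guide 1 of sgMef2c 2 were, and without guide 2 of sgMef2c 12. Over all genes the calls went from 405 higher and 629 lower to 9 and 41 without e1 and to 9 and 36 without e3, while the Hspd1 difference was 0.30 and 0.36 (edgeR adjusted p = 0.13 and 0.091).

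**Figure D5:**
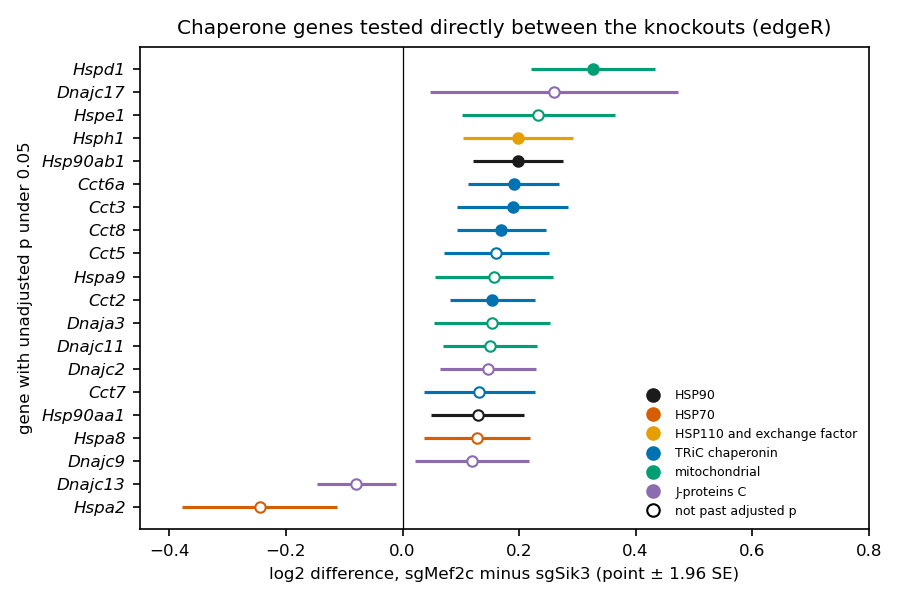
Log2 difference of sgMef2c minus sgSik3 (horizontal axis, from edgeR) for the 20 members with an unadjusted p under 0.05. Bars reach about 2 SE to each side of a point and are narrower than 95% intervals of the test. Filled points passed the adjusted test. Hspd1 is highest among the filled points at 0.33, and Hspa2 is lowest at -0.24.

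Partner proteins that the symbol rule leaves out were read from a list of 42, chosen with earlier results of these data known. Its counts are therefore no independent support for those of the members, and they were not tested against all genes. With sgSik3, 25 of 41 tested fell and 2 rose, where 23.9% of all genes were called in each direction. With sgMef2c 16 fell and 2 rose, where 15.1% of all genes fell and 16.3% rose; 0 were called with the inhibitor in either line. Among HSP90 partners, Fkbp4 (FKBP52), an immunophilin of steroid receptor complexes, went from 7477 and 7679 to 5520 and 5496 with sgSik3 (-0.46, limma adjusted p = 6.9e-06). Its paralog Fkbp5 (FKBP51) rose slightly, from 3570 and 3720 to 4002 and 3899 (0.12, limma adjusted p = 0.028). The adaptor Stip1 (HOP) and the kinase cochaperone Cdc37 fell by 0.26 and 0.29. Of the mitochondrial list 7 of 10 fell, among them Trap1, the mitochondrial HSP90 (3506 and 3675 to 2695 and 2731, -0.40), the protease subunit Clpp (-0.48) and the disaggregase Clpb (-0.40). Of prefoldin, which hands chains to TRiC, Pfdn2, Pfdn4, Pfdn6 and Vbp1 fell by 0.15 to 0.29, while Pfdn5 rose by 0.22 (limma adjusted p = 0.0013). Of the 7 chaperones of the endoplasmic reticulum left out by the rule 3 fell and 1 rose with sgSik3, and 2 fell and 1 rose with sgMef2c, numbers too small to set against those shares of all genes; Hspa5 fell by 0.32 and 0.23.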

How the data were processed

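HISAT2, featureCounts and DESeq2, with builds hg19 (human) and mm10 (mouse), are named per the submitters' processing notes. Their versions were not given in the sources used here. Each comparison has its own table deposited by the authors, 4 in all, of reads divided by a library size factor, so the values are a linear signal and not raw counts. Tests stayed within a table. Dividing by the worth of 1 read gave whole reads for 100% of values; the sgRosa26 reads were the same in both tables (0 genes differed).

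Genes with a mean of at least 10 entered limma 3.58.1 (R 4.3.3) as log2(value + 1), two-sided with a mean-variance trend, and p-values were adjusted by Benjamini-Hochberg over all genes tested, at a threshold of 0.05; this scale understates the change of low genes. The knockouts were compared by edgeR 4.0.16 on recovered reads of the 6 RN2c libraries. DESeq2 1.42.0, edgeR, other pseudocounts, filters and scalings, a replicate block and leaving out a library were alternatives. Scripts were tested on simulated data. Exon lengths and coordinates come from GENCODE M21, promoters from RefSeq (GRCm38.p6). The members and lists (folding partners, endoplasmic reticulum chaperones, immediate early genes, targeted genes with MYC, cell type markers) were chosen with earlier results of these data known. Named were a core set of members in every comparison and, of the others with a mean of at least 50, the 6 of largest rise and of largest fall past the test, filled to 3 by lowest p where fewer passed; a few others were chosen after their values were seen. Immediate early genes gave 5 lower and 4 higher of 10 with sgSik3, 5 lower with sgMef2c, 1 lower in RN2 and 0 in MOLM-13.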

Additional observations from a re-analysis of the deposited data

Results flagged for a closer look

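Members whose level differed between the knockouts in edgeR's direct test are given with their log2 difference, sgMef2c minus sgSik3. They were Hspd1 (0.33 ± 0.05, SE), Hsp90ab1 (0.20), Hsph1 (0.20), Cct6a (0.19), Cct3 (0.19), Cct8 (0.17) and Cct2 (0.15). Their adjusted p-values ran from 0.0072 to 0.04 in edgeR's quasi-likelihood test, and all 7 were higher with sgMef2c. None kept its call without either sgSik3 library, where the adjusted p of Hspd1 was 0.13 without e1 and 0.091 without e3.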

How the results depend on the processing

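The deposited tables hold 2 libraries per group and, for low members, few reads, which limits small changes. No called change of a named member reversed under any alternative run. With the replicate block, MOLM-13 had 1 lower member (HSPBP1, limma adjusted p = 0.012) and RN2 had 2 (Hspa8, 3.9e-10, and Hspd1, 0.036), against 0 in the tests as reported. The replicate numbers are only shared by name: the correlation of same-numbered deviations was 0.525 in MOLM-13, 0.216 in RN2 and 0.051 in sgMef2c over 2 pairs each, and the block gave 18 lower and 8 higher with sgMef2c, where Hspa8 passed (limma adjusted p = 0.021). No paired analysis was possible for sgSik3 because its guides share no number with the controls. Leaving out a library gave 0 to 2 lower in RN2, 20 to 27 lower and 6 to 12 higher with sgSik3, 12 to 17 lower and 3 to 7 higher with sgMef2c, and 0 to 12 higher and 0 to 1 lower between the knockouts. For sgMef2c, limma without the trend left 6 lower and 3 higher (17 and 7 as reported) and DESeq2 4 higher. Between the knockouts, no filter gave 15 higher and 1 lower, a mean of at least 50 gave 1 lower and the 4 knockout libraries alone 1 lower (7 and 0 as reported). Over all genes, RN2 had 4 higher and 30 lower, which became 196 and 303 with the replicate block, 44 and 99 without the first and 131 and 187 without the second DMSO library, 0 and 0 without the trend, 0 and 3 with no filter and 1 and 15 after quantile normalization. MOLM-13 had 140 and 150 with the block against 0, and sgMef2c 887 and 741 without the trend against 1783 and 1659. The cause of these changes was not tested, except that a fit with fewer libraries has less information.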
